A study of Mus musculus with 43 samples.

Results

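Lungs of mice exposed to house dust mite extract (HDM) for 11 weeks were compared, gene by gene, with lungs of mice given saline. The comparison holds 11 of the 43 RNA libraries of the series, 6 HDM and 5 saline, taken by the exposure written in each library's label, and neither group received an antibody. Female mice of a mixed 129S6/C57BL/6 background, aged 8 to 12 weeks, received HDM intranasally 3 times weekly, and RNA came from lung. The 11 weeks are read from the labels, since the design text of the series lists exposures of 4, 15 and 19 weeks. It does not say for how long saline was given. For the antibody experiments of the series, IL-4, IL-33 and the outer part of the IL-4 receptor alpha chain were exchanged for human sequence, and the labels do not say whether the mice of these 2 groups carried the exchange. Libraries were numbered 1, 2, 3, 4, 8 and 9 in the HDM group and 1 to 5 in the saline group. Nothing in the labels states that each library is a separate mouse, so the p-values below measure the spread between libraries. For the tests of genes that spread was estimated over all 43 libraries of the series, within their groups. In whole lung, fewer cells of a type and less RNA per cell cannot be told apart.

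House dust mite allergens act first on the airway epithelium, which releases the alarmins IL-33, TSLP and IL-25. These activate group 2 innate lymphoid cells and helper T cells, whose cytokines IL-4, IL-5 and IL-13 are called type 2. IL-5 sustains eosinophils, IL-4 drives antibody class switching, and IL-13 makes airway cells produce mucus and, with IL-4, turns macrophages to the so-called alternatively activated state. With long exposure the airway wall gains matrix and smooth muscle.

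Libraries held 13.7 M to 18.2 M counts in the HDM group and 14 M to 23.3 M in the saline group. Levels are given as CPM, the count relative to the scaled library total, and a fold change as the log2 of the HDM level over the saline level with its standard error. Markers of lung epithelium, among them Sftpa1, Scgb1a1 and Hopx, were present in all 11 libraries at the levels given below. On the first principal component, with 52.2% of the variance, the HDM libraries lay between 30.1 and 76.3 and the saline libraries between -69.1 and -51.3. The second component, with 17.6%, set saline library 3 apart at -100.7, while the other 10 libraries lay between -11.6 and 25.5. The median correlation of saline library 3 with its own group was 0.922, against 0.977 to 0.982 for the other 4 saline libraries. The 2 HDM libraries numbered 8 and 9 do not follow the other 9 in the numbering of libraries. They had the steepest slopes of expression on the GC content of transcripts, described at the end, and 1 gene ID without a symbol took 4.48% and 5.04% of their counts, against 1.29% to 3.03% in the other 9 libraries.

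**Figure D1:**
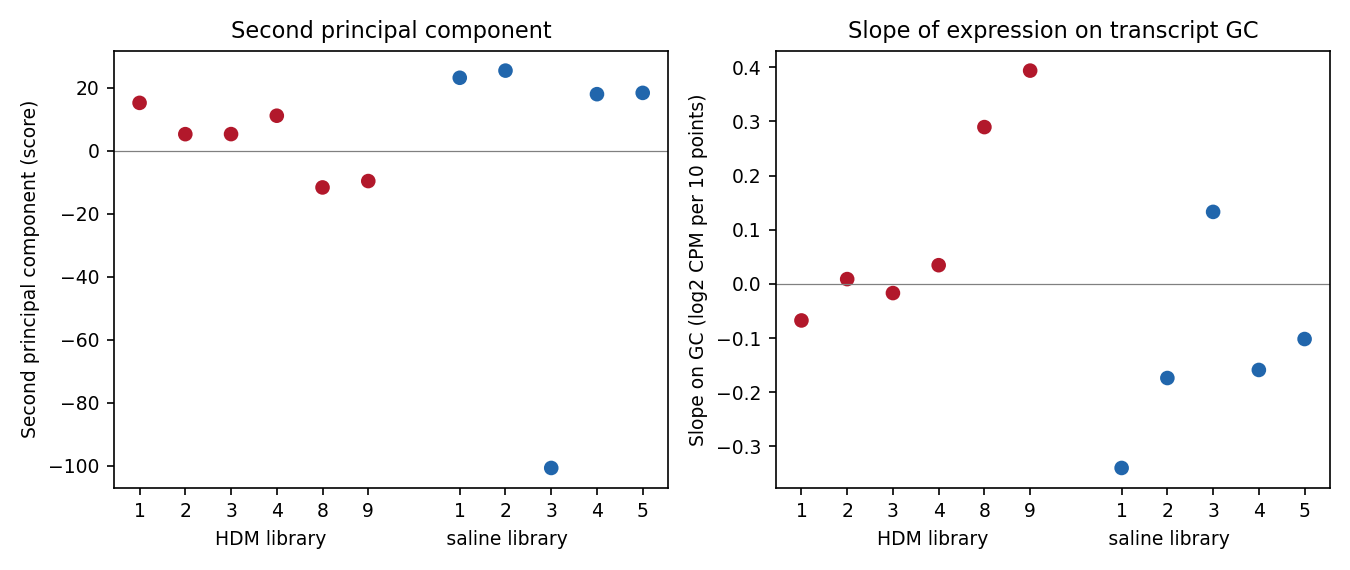
Each point is 1 library, HDM left and saline right. The left panel plots the second principal component of log2 CPM, in which saline library 3 stands at -100.7 away from all others, and the right panel the slope of log2 CPM on transcript GC content, in log2 units per 10 percentage points, which is highest in HDM libraries 8 and 9.

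Of 15979 genes tested, 2459 or 15.4% differed at an adjusted p under 0.05 in edgeR's quasi-likelihood test with Benjamini-Hochberg adjustment. Among them 1382, or 8.65% of the genes tested, were higher in HDM lungs and 1077, or 6.74%, were lower. A change of at least 4-fold was called higher for 468 genes (2.93%) and lower for 274 genes (1.71%). The 6 HDM and 5 saline libraries did not overlap for 3457 genes (21.6%). The median log2 fold change over all genes tested was 0.0034. Without saline library 3, 1212 of the 1382 higher and 824 of the 1077 lower genes were still called, and the genes called at least 4-fold lower came to 155. Without HDM libraries 8 and 9, 942 of the higher and 553 of the lower genes were still called.

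**Figure D2:**
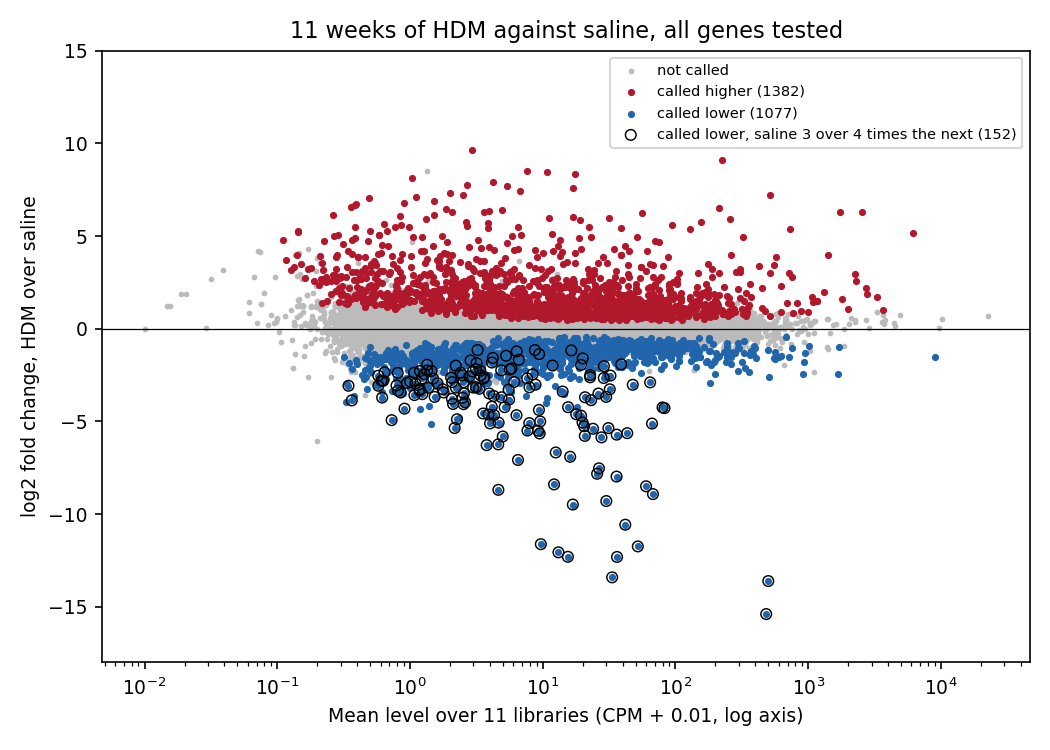
Each point is 1 of 15979 genes, with its mean level over the 11 libraries in CPM on a log axis and its log2 fold change of HDM over saline. Red points are the 1382 genes called higher, blue points the 1077 called lower, and open black circles the called-lower genes whose level in saline library 3 was more than 4 times that of the next saline library.

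The highest-fold genes in HDM lungs came from very low levels in saline. Msx3, a homeobox transcription factor at chromosome 7, 140046157 to 140049088 (mm10), had 3.10 to 7.75 CPM (median 5.26) in the HDM libraries and no count in any saline library. Its 593 counts in the HDM libraries put it at least 219-fold higher, taking 3 counts over the saline group as the floor. Npy, the gene of neuropeptide Y at chromosome 6, 49822710 to 49829507, had 2.36 to 28.1 CPM (median 11.1) in HDM lungs, against 0, 0, 0.0691, 0.0389 and 0.0330 CPM in saline libraries 1 to 5. Fgf23, a hormone of phosphate balance known from bone (chromosome 6, 127072902 to 127082296), had 2.21 to 44.5 CPM (median 18) in HDM lungs, against 0.0480, 0, 0.138, 0.0389 and 0 CPM in saline lungs. Its log2 fold change was 8.48 ± 1.22 (adjusted p = 2.21e-06), and 9.44 without saline library 3. All 3 were at or near 0 in each saline lung.

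Enzymes and membrane proteins followed. Awat1, a wax alcohol acyltransferase known from sebaceous glands (chromosome X, 100572247 to 100578206), had 19.2 to 54.5 CPM (median 29.2) in HDM lungs, against 0.384, 0, 0, 0.0389 and 0.0660 CPM in saline lungs, a log2 fold change of 8.34 ± 0.64 (adjusted p = 4.13e-12), and 9.80 without saline library 1. Fxyd4, a regulator of the sodium pump (chromosome 6, 117933558 to 117937714), had 15.9 to 55.2 CPM (median 28.8) in HDM lungs and 0.240, 0.110, 0.104, 0.117 and 0.198 CPM in saline lungs. Tm4sf19, a membrane protein with 4 transmembrane segments (chromosome 16, 32400012 to 32409234), had 7.36 to 18.7 CPM (median 10.4) in HDM lungs, against 0 to 0.117 CPM in saline lungs. The groups were far apart for each, and lack of overlap was a condition for naming these genes. Mmp12, the macrophage elastase (chromosome 9, 7344397 to 7360461), had 617 to 1396 CPM (median 931) in HDM lungs and 7.83, 9.59, 5.36, 5.68 and 3.47 CPM in saline lungs.

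By the size of the difference in level, macrophage and secretory products led. Chil3, a chitinase-like lectin of macrophages also known as Ym1 (chromosome 3, 106147554 to 106167564), averaged 11060.0 ± 3095 CPM in HDM lungs and 310.5 ± 158 CPM in saline lungs (SD, n = 6 and 5). C3, the central complement component (chromosome 17, 57203967 to 57228136), averaged 4835 ± 536 CPM in HDM lungs and 1468 ± 754 CPM in saline lungs. Psap, the precursor of the saposins that help lysosomal enzymes degrade sphingolipids (chromosome 10, 60277628 to 60302600), averaged 4242 ± 1105 CPM and 907 ± 103 CPM, in the same order. All 3 rose, and the rule for naming them required that the groups did not overlap. Sftpa1, a surfactant protein of the collectin family (chromosome 14, 41131788 to 41136373), averaged 4716 ± 343 CPM in HDM lungs and 2340.0 ± 625 CPM in saline lungs. Chil1, another chitinase-like protein (chromosome 1, 134182156 to 134190031), averaged 3716 ± 417 CPM in HDM lungs and 473 ± 215 CPM in saline lungs. Ctsb, the lysosomal cysteine protease cathepsin B (chromosome 14, 63122462 to 63145923), averaged 1986 ± 614 CPM in HDM lungs and 494 ± 85.6 CPM in saline lungs.

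The largest drop in level was that of Scgb1a1, the main secretory protein of club cells (chromosome 19, 9083642 to 9087956). It averaged 4927 ± 1720.0 CPM in HDM lungs, against 13953 ± 3071 CPM in saline lungs, with a log2 fold change of -1.50 ± 0.44 (adjusted p = 0.0153), and its call was lost without HDM libraries 8 and 9 (adjusted p = 0.0691). Igfbp5, an insulin-like growth factor binding protein (chromosome 1, 72858065 to 72874865), averaged 342 ± 70.6 CPM in HDM lungs and 957 ± 202 CPM in saline lungs. Limch1, an actin-associated protein (chromosome 5, 66745889 to 67057159), averaged 289 ± 81.2 CPM in HDM lungs and 883 ± 158 CPM in saline lungs. Pon1, a lipoprotein-associated esterase (chromosome 6, 5168090 to 5193987), had 0.745 to 2.64 CPM (median 2.22) in HDM lungs, against 45, 36.2, 38.4, 41.1 and 25.7 CPM in saline lungs. Gria1, a subunit of AMPA glutamate receptors (chromosome 11, 57011571 to 57330244), had 0.186 to 2.42 CPM (median 1.46) in HDM lungs and 19.1, 23.9, 17.6, 26.2 and 22.5 CPM in saline lungs. For all of these the HDM libraries lay below every saline library, which the rule for naming them required. Some drops in level passed the test narrowly. Ahnak, a large scaffold protein (chromosome 19, 8989284 to 9076935), was called lower (adjusted p = 0.0413), and the call was lost without saline library 1, 2 or 4 and without HDM library 1, 3, 4, 8 or 9, with an adjusted p of up to 0.0896. Hbb-b1, an adult beta globin with near-identical copies, was called lower (adjusted p = 0.0428), and the call was lost without saline library 3, 4 or 5 and without HDM library 1, 3, 4, 8 or 9, with an adjusted p of up to 0.0886.

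Many of the highest-fold falls rested on saline library 3. It alone carried squamous epithelium, fat and muscle transcripts at high levels. Markers of basal and squamous epithelium summed to 8.01 to 9.49 CPM in HDM lungs, against 13421 CPM in saline library 3 and 6.00 to 10.2 CPM in the other 4 saline libraries. Adipocyte markers summed to 163 to 219 CPM in HDM lungs, against 1822 CPM in saline library 3 and 137 to 177 CPM in the other saline libraries. Heart and skeletal muscle markers summed to 87.0 to 209.9 CPM in HDM lungs, against 2027 CPM in that library and 168 to 313 CPM in the rest of the saline group. The counts of calls were also taken without this library.

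Krt13, a keratin of the oral and oesophageal lining, had 0 to 0.112 CPM (median 0) in HDM lungs, against 0, 0.0551, 5305, 0.350 and 0.330 CPM in saline libraries 1 to 5. Rptn, an epidermal matrix protein (chromosome 3, 93393699 to 93399442), had 0.0621 to 0.471 CPM (median 0.336) in HDM lungs, against 3.94, 2.20, 732, 2.84 and 1.39 CPM in saline lungs. Its log2 fold change of -8.92 ± 2.08 (adjusted p = 0.00213) came to -3.09 (adjusted p = 0.237) without saline library 3. For Tgm3, an epidermal transglutaminase (chromosome 2, 129987794 to 130050399), the values were -7.97 ± 1.73 (adjusted p = 9.50e-04) with all libraries and -2.96 (adjusted p = 0.147) without it. In the same way the calls of Dsc3, Klk10, Myl1, Elovl4 and Car3 were lost. Their adjusted p came to 0.188, 0.707, 0.56, 0.293 and 0.0558 without that library. These losses, like those of Rptn and Tgm3, belong to the fit of the whole series. In a fit of the 11 libraries alone without saline library 3, no named gene that passed the filter lost its call. Car3 had at most 13.05 CPM in HDM lungs and at least 18.2 CPM in saline lungs. Prom2 and Cidec remained called without saline library 3 in the fit of the whole series, with log2 fold changes of -2.51 and -2.75 in place of -4.66 and -4.23. In all, 152 of the 1077 lower genes had more than 4 times the level of the next saline library in saline library 3. Of these 152, 11 were still called lower without saline library 3 in the fit of the whole series. Among the 274 genes called at least 4-fold lower, 135 (49.3%) were of this kind, against 2.24% of all genes tested. Of 14 squamous markers tested 9 fell, and without saline library 3 none fell and 2 rose. Of 11 adipocyte markers 8 fell, and without it 4 fell and 1 rose. Of 11 muscle markers 5 fell, and without it 1 fell, while none was called without HDM libraries 8 and 9. Counts for the gene lists below are over members that passed the filter on low counts, which 48 list members did not, and are to be read against the 8.65% higher and 6.74% lower among all genes tested.

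**Figure D3:**
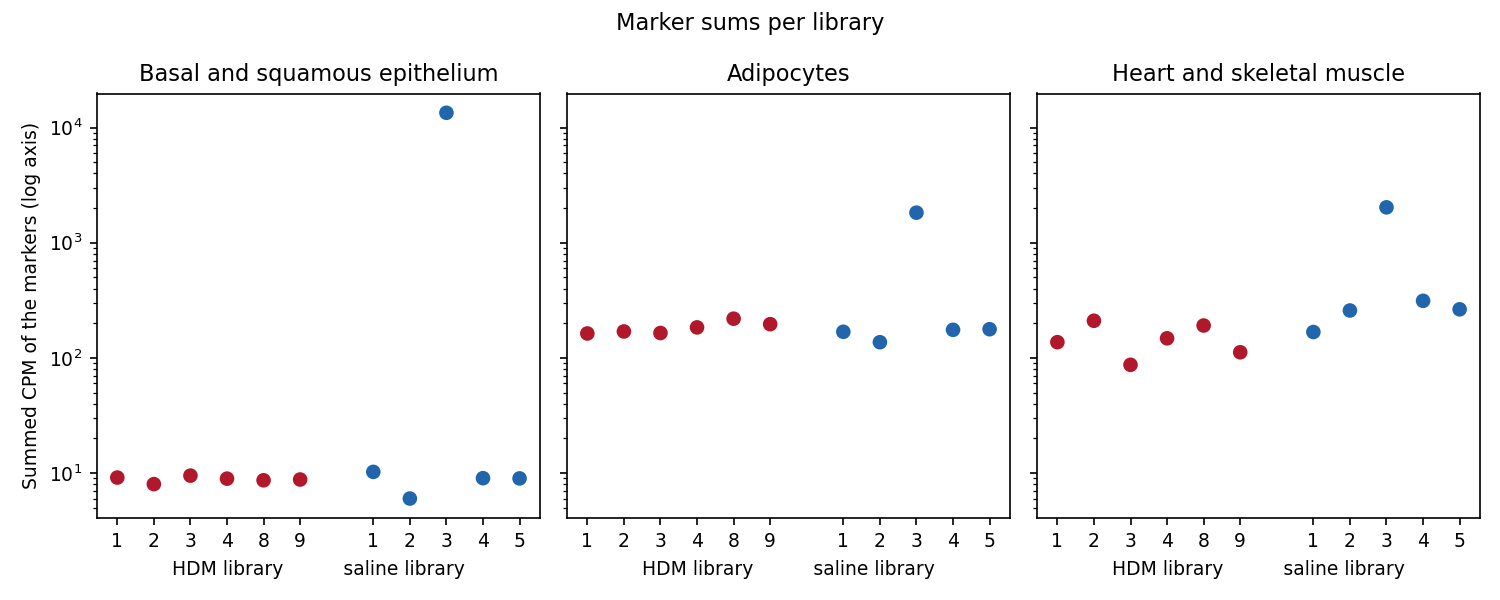
Summed CPM of 3 marker lists in each library, on a log axis, with the 6 HDM libraries left of the 5 saline libraries and the library numbers below. Saline library 3 stands at 13421 CPM for squamous epithelium, 1822 CPM for adipocytes and 2027 CPM for muscle, above all other libraries.

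Among 8 type 2 cytokines, 4 passed the filter on low counts and 3 of them rose, with a median log2 fold change of 2.14 against 0.0034 for all genes tested. Il13, the effector of mucus production, had 1.37 to 7.61 CPM (median 5.26) in HDM lungs, against 0, 0, 0.0345, 0.0389 and 0 CPM in saline lungs. Its 535 counts in HDM lungs against 2 in saline lungs gave a ratio of 297 (95% counting interval 81.8 to 2457). Il5, which sustains eosinophils, had 0.330 to 1.47 CPM (median 0.683) in HDM lungs, against 0, 0.0551, 0.242, 0.117 and 0.0330 CPM in saline lungs. Its log2 fold change was 3.07 ± 0.85 (adjusted p = 0.00965), and 3.83 without saline library 3. The call of Il5 was lost without HDM libraries 8 and 9 (adjusted p = 0.0948). Areg, an epidermal growth factor receptor ligand, had 2.21 to 7.78 CPM (median 4.63) in HDM lungs and 2.83, 1.76, 1.31, 1.94 and 1.92 CPM in saline lungs, which overlapped. Its call was lost without HDM library 4 (adjusted p = 0.0512). Il4 itself gave 1 count in the HDM libraries and none in the saline libraries, and Il9 likewise 1 count and none. The Il4 count is that of the mouse gene ID, and the labels do not say whether these mice carried the human exchange.

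IL-4 and IL-13 signal through receptors that share the IL-4 receptor alpha chain, and IL-13 also binds a decoy chain. Il13ra2, that decoy, had 1.55 to 11.7 CPM (median 8.15) in HDM lungs, against 0.0960, 0, 0.242, 0 and 0.0330 CPM in saline lungs, with a log2 fold change of 6.38 ± 0.87 (adjusted p = 9.36e-07) and of 7.51 without saline library 3. Irs2, an adaptor that carries the IL-4 signal, had 18.9 to 38.2 CPM (median 23.4) in HDM lungs and 11.9, 13.7, 6.53, 14.1 and 9.28 CPM in saline lungs. Il4ra had 133 to 315 CPM (median 174) in HDM lungs and 86, 106, 92.7, 101 and 114 CPM in saline lungs, without overlap, yet its log2 fold change of 0.93 ± 0.44 did not pass the test (adjusted p = 0.164). It passed under 8 of 28 alternatives, among them the fit with GC slope as covariate (adjusted p = 0.0251). Of 9 chains and signalling genes 4 rose and none fell, and 2 were called without HDM library 9 alone or libraries 8 and 9 together.

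The IL-33 receptor rose. Of 7 alarmin and receptor genes 3 rose and none fell, while 1 fell without saline library 3 and 6 rose with GC slope as covariate. Il33 had 12.2 to 18 CPM (median 15.2) in HDM lungs, against 13.7, 12.9, 9.98, 13.3 and 12.1 CPM in saline lungs, a log2 fold change of 0.28 ± 0.44 that did not pass the test (adjusted p = 0.76). Il33 was called higher under 4 of 28 alternatives, among them the fit with GC slope as covariate, at 0.62 on the log2 scale (adjusted p = 0.00636). Il1rl1, the IL-33 receptor chain ST2, had 22.3 to 61.6 CPM (median 38) in HDM lungs, against 5.38, 6.11, 5.98, 4.39 and 4.03 CPM in saline lungs, a log2 fold change of 2.96 ± 0.57 (adjusted p = 2.38e-04). Il7r, a chain shared by the IL-7 and TSLP receptors, had 45 to 117 CPM (median 68.9) in HDM lungs and 16.4, 23.1, 14.9, 22.9 and 31.1 CPM in saline lungs. No HDM library overlapped a saline library for either receptor. The counts of Il4, Il33 and Il4ra are those of the mouse gene IDs, so transcripts of a human exchange, if these mice carried it, may be missed.

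Of 12 innate lymphoid type 2 cell genes 7 were higher and none lower, while 6 were higher and 2 lower in a fit of the 11 libraries alone. The list shares Il13, Il5, Areg and Il1rl1 with those above and Arg1 with the macrophage genes below, so it is not separate from them. Calca, the gene of calcitonin gene-related peptide, had 1.74 to 8.31 CPM (median 4.49) in HDM lungs and 0.432, 0.551, 0.622, 0.661 and 0.396 CPM in saline lungs. Ccr8, a chemokine receptor of type 2 and regulatory T cells, belongs to the checkpoint and regulatory T cell list described below. It had 0.894 to 3.17 CPM (median 1.38) in HDM lungs, against 0.576, 0.386, 0.276, 0.117 and 0.297 CPM in saline lungs. Its HDM values lay above every saline value.

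Of 5 eosinophil attractants and receptors 3 rose and none fell, while 1 fell with GC slope as covariate, in a fit of the 11 libraries alone or with DESeq2. Ccl11, eotaxin-1, had 53.4 to 111 CPM (median 96.2) in HDM lungs, against 1.78, 0.992, 8.57, 1.71 and 1.55 CPM in saline lungs, a log2 fold change of 4.94 ± 0.54 (adjusted p = 8.58e-09), and 5.89 without saline library 3. Ccr3, the eotaxin receptor of eosinophils, had 2.07 to 6.87 CPM (median 3.58) in HDM lungs and 0.480, 1.21, 0.795, 1.09 and 0.627 CPM in saline lungs. Prg2, eosinophil major basic protein, had 3.79 to 10.6 CPM (median 7.64) in HDM lungs, against 1.30, 0.826, 4.46, 0.272 and 0.330 CPM in saline lungs, where library 3 held the highest value and overlapped the HDM range. The log2 fold change of Prg2 was 2.33 ± 0.49, and 3.44 without that library. Eosinophil markers gave 3 higher and 1 lower of 9. Epx, eosinophil peroxidase, was under the filter with 61 counts in the HDM libraries and 7 in the saline libraries.

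Among 11 mediators of type 17 and neutrophil responses 7 rose and none fell, with a median log2 fold change of 3.89. The type 17 cytokines themselves were scarcely detected. Il17a had 4 counts in the HDM libraries and none in the saline libraries. Under the filter were Il17f, with 5 counts in each group, Il17c and Il22, each with 2 counts and none, and Il23a, with 25 and 13. Il6 had 2.69 to 7.82 CPM (median 4.71) in HDM lungs, against 0.192, 0.0551, 0.173, 0.194 and 0.462 CPM in saline lungs. Cxcl1 had 6.84 to 14.1 CPM (median 11.5) in HDM lungs and 0.912, 0.331, 0.414, 0.505 and 0.693 CPM in saline lungs. Both are induced early in inflammation, and Cxcl1 attracts neutrophils. Cxcl2, of the same family, had 6.21 to 30.5 CPM (median 7.96) in HDM lungs, against 0.384, 0.220, 0.104, 0.0778 and 0.462 CPM in saline lungs. Lcn2, a siderophore-binding protein of epithelium and neutrophils, averaged 997 ± 197 CPM in HDM lungs and 67.3 ± 20.1 CPM in saline lungs, with a log2 fold change of 3.89 ± 0.27 (adjusted p = 2.72e-13). Of 12 neutrophil markers 1 rose, a share near the 8.65% of all genes tested, and 2 rose without HDM library 2 or 4 or saline library 2, while 1 fell that was not called without HDM library 1, 2, 4, 8 or 9 or saline library 2 or 3. The one that rose was Ltf, lactoferrin, with 57.4 to 122 CPM (median 71.2) in HDM lungs and 26.6, 16.1, 12.4, 28.6 and 9.01 CPM in saline lungs.

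Chemokines for monocytes and T cells rose as a block, 10 of 14 with none lower, in each fit that left out 1 library and without HDM libraries 8 and 9. With GC slope as covariate 11 rose and 1 fell. Ccl2, the main monocyte attractant, had 6.15 to 34.7 CPM (median 13.2) in HDM lungs and 1.10, 1.05, 1.59, 0.778 and 0.561 CPM in saline lungs. Ccl8 had 38.2 to 106 CPM (median 62.7) in HDM lungs, against 8.45, 1.65, 9.33, 1.36 and 0.561 CPM in saline lungs. Ccl6 stood highest in level, at 907 to 1600.0 CPM (median 1121) in HDM lungs and 265, 139, 152, 105 and 87.6 CPM in saline lungs. These groups did not overlap. Ccl17 and Ccl22, which draw type 2 and regulatory T cells through CCR4, had smaller changes, with log2 values of 1.84 ± 0.53 (adjusted p = 0.0134) and 1.47 ± 0.28 (adjusted p = 1.92e-04). Among interleukin-1 family genes, Il1a and the antagonist Il1rn rose and Il18 fell. Il1rn had 73.7 to 192 CPM (median 101) in HDM lungs, against 13.6, 7.66, 13.1, 7.16 and 7.26 CPM in saline lungs, and Il18 had 2.63 to 8.29 CPM (median 4.56) in HDM lungs, against 22.4, 17.1, 31.6, 13.1 and 12.8 CPM in saline lungs.

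**Figure D4:**
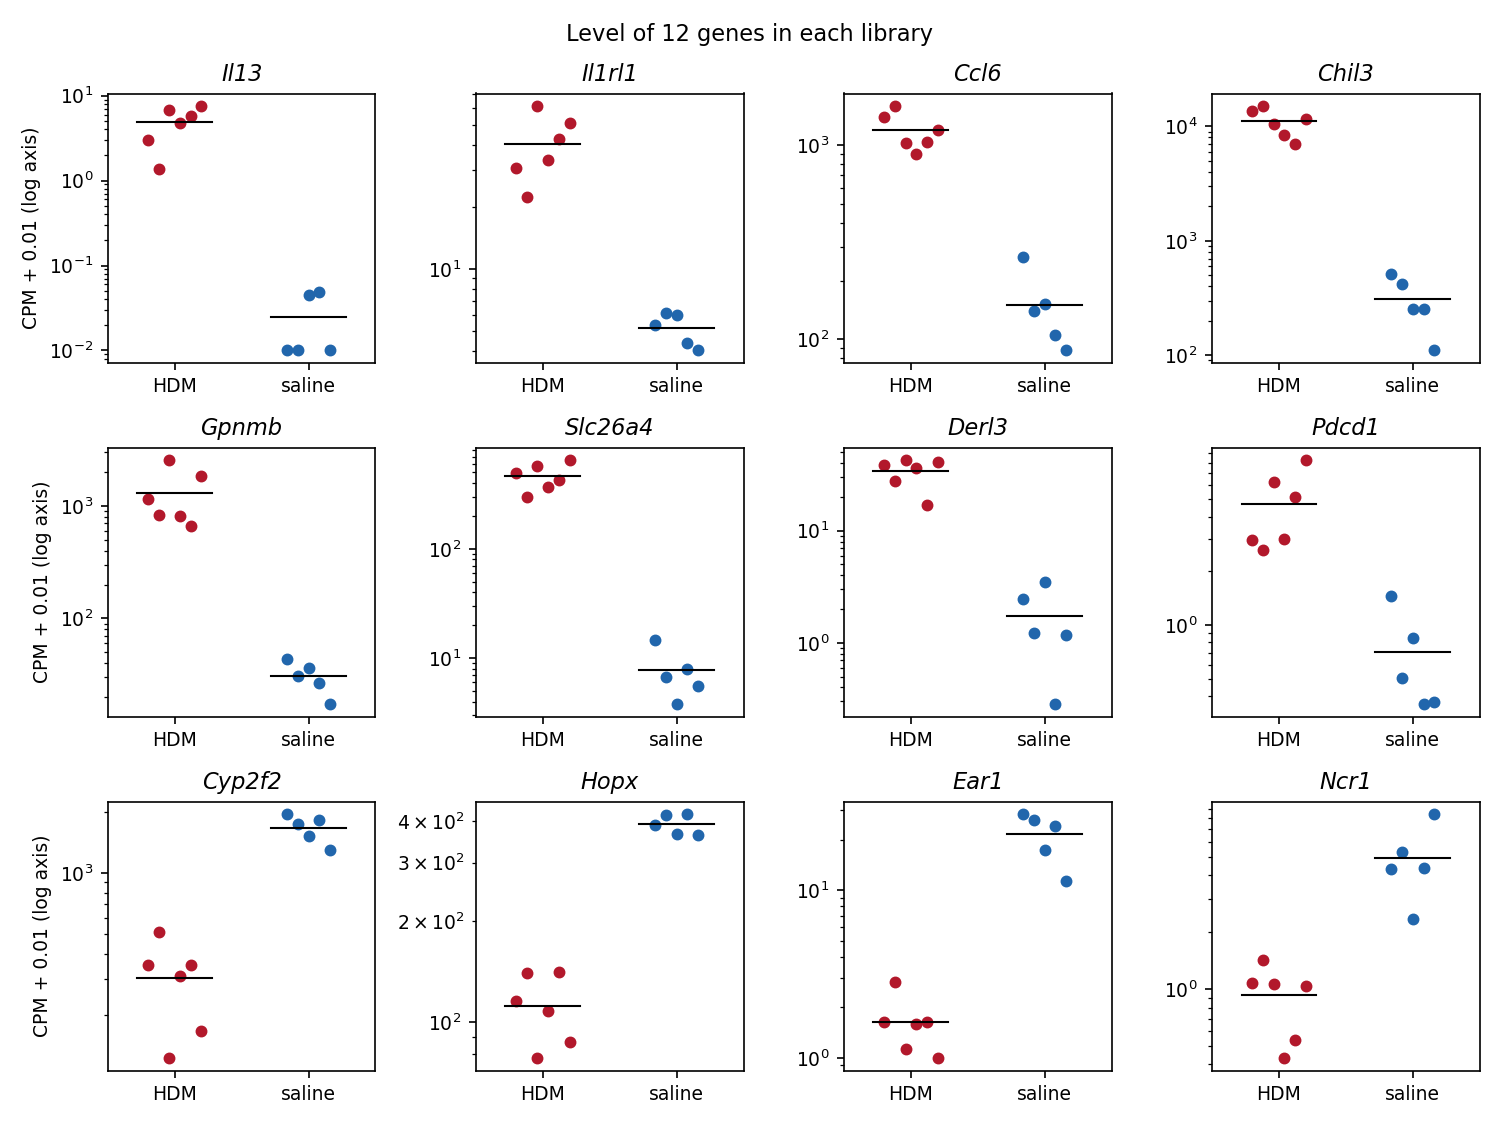
Level of 12 genes in each library, in CPM on log axes with 0.01 CPM added, HDM left and saline right, with a bar at the group mean. The 6 HDM libraries lie above the 5 saline libraries for Il13, Il1rl1, Ccl6, Chil3, Gpnmb, Slc26a4, Derl3 and Pdcd1, and below them for Cyp2f2, Hopx, Ear1 and Ncr1.

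Genes of alternatively activated macrophages rose for 11 of 17 members, and none fell. With GC slope as covariate 2 fell, and 1 fell in a fit of the 11 libraries alone or with DESeq2. Retnla, a resistin-like secreted protein (chromosome 16, 48842609 to 48844461), had 3208 to 5902 CPM (median 4616) in HDM lungs, against 56.8, 40.2, 120.0, 47.4 and 25 CPM in saline lungs, a log2 fold change of 6.32 ± 0.58 (adjusted p = 2.90e-10). Mrc1, the mannose receptor, had 228 to 352 CPM (median 294) in HDM lungs and 125, 80.6, 88.4, 77.5 and 31.5 CPM in saline lungs. Pdcd1lg2, the PD-1 ligand PD-L2, had 8.25 to 22.9 CPM (median 14.6) in HDM lungs, against 3.02, 1.38, 2.52, 1.40 and 3.47 CPM in saline lungs. These values did not overlap between the groups. Arg1, which breaks down arginine (chromosome 10, 24915207 to 24927470), had 128 to 665 CPM (median 322) in HDM lungs and 1.78, 1.43, 14.6, 1.67 and 1.62 CPM in saline lungs, and its log2 fold change of 6.51 ± 1.02 came to 7.88 without saline library 3. Chil4, close in sequence to Chil3 so that reads may be shared, had 95.2 to 386 CPM (median 227) in HDM lungs, against 0.144, 0.275, 25.8, 0.583 and 0.0991 CPM in saline lungs. Its log2 fold change of 5.41 ± 1.15 came to 9.66 without saline library 3.

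STAT6, the factor activated by IL-4 and IL-13, recognises 2 half-sites with a spacer, written here as TTCNNNNGAA. The 250 bases before the start of Retnla and Pdcd1lg2 are shown because both genes rose and each window holds 1 such match, in capitals. They were picked after their values were seen. Sequences are RefSeq's for GRCm38.p6 (the mm10 build), read 5′ to 3′ on the gene's strand, from chr16:48842359-48842608 and chr19:29410669-29410918, both on the plus strand.
Retnla: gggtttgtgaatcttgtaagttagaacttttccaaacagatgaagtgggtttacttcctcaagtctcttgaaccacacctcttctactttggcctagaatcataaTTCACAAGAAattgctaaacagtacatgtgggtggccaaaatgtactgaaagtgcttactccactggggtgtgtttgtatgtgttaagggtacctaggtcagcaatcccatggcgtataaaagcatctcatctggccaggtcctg
Pdcd1lg2: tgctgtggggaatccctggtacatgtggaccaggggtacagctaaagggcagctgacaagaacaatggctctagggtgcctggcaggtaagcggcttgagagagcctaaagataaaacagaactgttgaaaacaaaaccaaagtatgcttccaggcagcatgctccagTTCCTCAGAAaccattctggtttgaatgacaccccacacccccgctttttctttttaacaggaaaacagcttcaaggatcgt
The match began 145 bases before the Retnla start and 82 bases before the Pdcd1lg2 start. In windows of 300 bases around gene starts, searched on both strands, the letters occurred in 8.82% of called higher genes, 7.01% of called lower genes and 6.60% of all tested genes with a promoter in the table, and in 6.95% of 32851 promoters.

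Lysosomal and lipid-handling macrophage genes rose for 12 of 20 members, and none fell. Gpnmb, a lysosomal membrane glycoprotein, had 667 to 2573 CPM (median 986) in HDM lungs, against 44, 31, 36.3, 26.7 and 17.2 CPM in saline lungs. Trem2, a lipid receptor, had 35.5 to 82.1 CPM (median 41.1) in HDM lungs and 5.42, 4.41, 6.36, 3.34 and 2.94 CPM in saline lungs. Ctsk, cathepsin K, had 306 to 923 CPM (median 536) in HDM lungs, against 30.5, 17.3, 14.9, 16.6 and 12.2 CPM in saline lungs, a log2 fold change of 4.98 ± 0.53 (adjusted p = 6.09e-09). For each of these the lowest HDM library stood above the highest saline library. Spp1, osteopontin, averaged 3174 ± 1961 CPM in HDM lungs and 39.6 ± 21.7 CPM in saline lungs. Ctsd, the lysosomal aspartyl protease (chromosome 7, 142375910 to 142387827), averaged 3700.0 ± 940.3 CPM in HDM lungs and 612 ± 209 CPM in saline lungs. Of 14 scavenging and iron genes 7 rose, and 1 fell that was not called without HDM library 1, 2, 3, 4 or 9, HDM libraries 8 and 9 together, or saline library 1 or 3. Ftl1 and Fth1, the ferritin chains with many processed copies in the genome, averaged 4127 ± 796 CPM and 2597 ± 272 CPM in HDM lungs, against 1134 ± 233 CPM and 865 ± 68.3 CPM in saline lungs. Hmox1, which frees iron from haem, had 115 to 173 CPM (median 138) in HDM lungs and 38.3, 26.1, 43.9, 24.8 and 23.2 CPM in saline lungs. Tfrc, the transferrin receptor, had 123 to 268 CPM (median 211) in HDM lungs, against 91.5, 71.6, 70.6, 64.3 and 58.5 CPM in saline lungs.

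Of 7 resistin-like and chitinase-like genes 6 rose and none fell. Chia1, acidic chitinase, which breaks down chitin, averaged 936 ± 296 CPM in HDM lungs and 86.3 ± 25.4 CPM in saline lungs. Retnlb, a relative of Retnla known from gut goblet cells, had 60 counts in HDM lungs against 2 in saline lungs, a ratio of 33.3 (95% counting interval 8.82 to 281). Arginine and polyamine enzymes gave 7 higher of 14 and none lower, with 4 higher without HDM library 9, without HDM libraries 8 and 9 or without saline library 2, 4 or 5. Arg2, the mitochondrial arginase, had 14.1 to 25.7 CPM (median 17.6) in HDM lungs and 7.25, 6.39, 4.08, 6.77 and 3.60 CPM in saline lungs. Nos2, the inducible nitric oxide synthase, which uses the same substrate, had 16.7 to 40.9 CPM (median 19.3) in HDM lungs, against 3.70, 4.52, 3.97, 5.95 and 5.18 CPM in saline lungs. Slc7a2, an arginine transporter, had 192 to 383 CPM (median 329.8) in HDM lungs and 63.7, 51.2, 24.8, 52.1 and 35 CPM in saline lungs. The groups did not overlap for these 3.

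Markers of resident alveolar macrophages went both ways, with 2 of 14 higher, 4 lower and a median log2 fold change of -0.55. Ear1, a ribonuclease with close relatives (chromosome 14, 43818765 to 43819639), had 0.981 to 2.83 CPM (median 1.60) in HDM lungs, against 28.6, 26.3, 17.3, 24.1 and 11.4 CPM in saline lungs, a log2 fold change of -3.71 ± 0.56 (adjusted p = 5.98e-06). Fabp1, a fatty acid binding protein, had 0 to 0.189 CPM (median 0.0572) in HDM lungs and 3.41, 4.57, 2.76, 3.11 and 1.39 CPM in saline lungs. Krt79 had 1.23 to 7.16 CPM (median 2.53) in HDM lungs, against 18.4, 16.9, 12.8, 18.6 and 7.66 CPM in saline lungs, with an adjusted p of 0.103 without HDM libraries 8 and 9. All 3 lay below every saline library in every HDM library. Atp6v0d2, a subunit of the proton pump of lysosomes, was one of the 2 that rose, with 185 to 408 CPM (median 339.9) in HDM lungs and 61.3, 34.8, 21.9, 30.9 and 18.4 CPM in saline lungs. Monocyte and interstitial macrophage genes included Ly6c2, with 97.3 to 265 CPM (median 161) in HDM lungs, against 29.2, 27.2, 23.5, 22.8 and 27.4 CPM in saline lungs, and the tetraspanin-like Ms4a7, with 15.5 to 33.3 CPM (median 18.4) and 6.00, 2.31, 3.38, 2.14 and 1.65 CPM, in the same order. Of that list 5 of 14 rose and 1 fell, and 3 were higher and none lower without HDM libraries 8 and 9, and likewise 3 higher without saline library 2 or 5.

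Mucus genes rose. Of 13 mucins and airway transport genes 8 were higher and none lower. Muc5ac, the inducible gel-forming mucin, had 2.61 to 25.3 CPM (median 6.62) in HDM lungs, against 1.63, 1.21, 0.587, 1.28 and 0.726 CPM in saline lungs, a log2 fold change of 3.24 ± 0.54 (adjusted p = 3.10e-05). Muc5b, the constitutive airway mucin, had 39.5 to 139 CPM (median 91.4) in HDM lungs and 47.9, 16.7, 8.43, 51.4 and 10.2 CPM in saline lungs, which overlapped. Slc26a4, the anion exchanger pendrin, had 299 to 654 CPM (median 460.5) in HDM lungs, against 14.7, 6.72, 3.77, 7.89 and 5.55 CPM in saline lungs. Clca1, a secreted goblet cell protein (chromosome 3, 145004537 to 145032776), had 118 to 764 CPM (median 339) in HDM lungs and 2.83, 0.165, 0.138, 0.583 and 0 CPM in saline lungs. Its log2 fold change was 9.12 ± 1.37 with saline library 1 and 10.81 without it.

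Goblet cell regulators and products rose for 7 of 13 measured members, and none fell. Foxa3, a transcription factor of goblet cells, had 0.473 to 1.42 CPM (median 0.877) in HDM lungs, against 0.0480, 0.0551, 0.0691, 0.0778 and 0.132 CPM in saline lungs. Agr2, a disulphide isomerase needed for mucin folding, had 3.34 to 8.06 CPM (median 5.36) in HDM lungs and 0.864, 0.220, 0.207, 0.544 and 0.165 CPM in saline lungs. Tff1, a trefoil peptide, had 51 counts in the HDM libraries and none in the saline libraries, at least 18.9-fold higher against a floor of 3 counts over the saline group. Each stayed low in level, below 10 CPM in every library. Itln1, the lectin intelectin-1, had 5.03 to 37.8 CPM (median 18.8) in HDM lungs, against 0.480, 0, 0.276, 0.117 and 0.660 CPM in saline lungs.

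Club cell genes fell as mucus genes rose. Of 9 markers, 6 were lower and none higher, with a median log2 fold change of -1.50, and 5 were lower without saline library 3 and 4 without HDM libraries 8 and 9. Scgb3a2, a secretoglobin, had 12.4 to 88.3 CPM (median 41.8) in HDM lungs, against 452, 286, 293, 403 and 305 CPM in saline lungs. Cyp2f2, the club cell cytochrome P450 (chromosome 7, 27119955 to 27133660), had 122 to 512 CPM (median 331) in HDM lungs and 1955, 1738, 1520.0, 1811 and 1291 CPM in saline lungs, a log2 fold change of -2.46 ± 0.46 (adjusted p = 1.44e-04). No HDM library reached the lowest saline library. Cbr2, a lung carbonyl reductase (chromosome 11, 120729485 to 120732025), averaged 446 ± 199 CPM in HDM lungs and 1520.0 ± 132 CPM in saline lungs, and its call was lost without HDM libraries 8 and 9 (adjusted p = 0.0649). Sec14l3, a lipid transfer protein of airway epithelium (chromosome 11, 4064853 to 4078990), averaged 574 ± 201 CPM in HDM lungs and 1394 ± 263 CPM in saline lungs, and its call (adjusted p = 0.0321) was lost without saline library 1, 2 or 4 and without HDM library 3 or 9, with an adjusted p of up to 0.087.

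Enzymes of drug and xenobiotic breakdown fell for 15 of 19 members, and none rose, with a median log2 fold change of -1.28, against 6.74% lower among all genes tested. Without saline library 3 the count was 12, and without HDM libraries 8 and 9 it was 10. Cyp4b1 had 56.2 to 177 CPM (median 103) in HDM lungs, against 462, 577, 514, 587 and 454 CPM in saline lungs. Gsta3, a glutathione transferase, had 11.8 to 28.5 CPM (median 18.5) in HDM lungs, against 106, 112, 97.1, 99.2 and 83.2 CPM in saline lungs, a log2 fold change of -2.41 ± 0.56 (adjusted p = 0.00209). Ephx1, the microsomal epoxide hydrolase, had 50.6 to 87.2 CPM (median 71) in HDM lungs and 148, 137, 163, 136 and 120.1 CPM in saline lungs. In all 3 the groups were separate. Several of these enzymes are made by club cells, so this list and the club cell list share members such as Aldh1a1 and Cyp2f2.

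Retinoid genes split. Aldh1a1, a retinaldehyde dehydrogenase, fell to 119 to 338 CPM (median 217) in HDM lungs, against 668, 683, 518, 731 and 538 CPM in saline lungs, while Aldh1a3, of the same family, had 3.29 to 19.6 CPM (median 6.58) in HDM lungs, against 0.768, 0.606, 0.933, 0.700 and 0.528 CPM in saline lungs. Rbp4, the retinol carrier, had 57.8 to 294 CPM (median 134) in HDM lungs and 9.89, 5.89, 20, 8.90 and 7.86 CPM in saline lungs. Rarb, a retinoic acid receptor, had 2.26 to 6.60 CPM (median 3.29) in HDM lungs, against 8.30, 8.48, 9.67, 8.75 and 8.49 CPM in saline lungs, and its call was lost without HDM libraries 8 and 9 (adjusted p = 0.0573). Of 13 genes of the list 2 rose and 4 fell, while 1 fell without HDM libraries 8 and 9 and 2 fell without HDM library 4 or 9.

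Mast cell proteases appeared in HDM lungs, among them Mcpt1 and Mcpt2 of the mucosal type. Mcpt1 (chromosome 14, 56017964 to 56020391) had 5.14 to 20.1 CPM (median 8.30) in HDM lungs, against 0.0480, 0.0551, 0.0345, 0 and 0.0660 CPM in saline lungs. Mcpt2 (chromosome 14, 56021584 to 56044635), a neighbour of like sequence, had 3.36 to 14.7 CPM (median 7.46) in HDM lungs, with 863 counts in the group against 3 in the saline group, a ratio of 319 (95% counting interval 109 to 1551). Tpsab1, a mast cell tryptase, had 0.236 to 10.4 CPM (median 2.51) in HDM lungs and 0, 0, 0.0691, 0 and 0 CPM in saline lungs. Its 411 counts in HDM lungs against 2 in saline lungs gave a ratio of 228 (95% counting interval 62.7 to 1889). Its log2 fold change of 7.33 ± 1.69 came to 9.05 without saline library 3, which held the only saline counts. The HDM libraries lay above the saline libraries for all 3. Cpa3, the mast cell carboxypeptidase, did not pass the test, with a log2 fold change of 0.19 ± 0.84 (adjusted p = 0.92). Of 11 measured proteases and IgE receptor genes 4 rose and none fell. Of 12 mast cell and basophil markers 2 rose and none fell, with a median log2 fold change of 0.24, and of 0.93 without saline library 3.

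Prostaglandin enzymes changed together with a receptor. Ptgs1, cyclooxygenase 1, had 221 to 296 CPM (median 248) in HDM lungs, against 89.9, 65.3, 46.3, 67.9 and 50.6 CPM in saline lungs. Ptges, a prostaglandin E synthase, had 73.3 to 151 CPM (median 96) in HDM lungs and 29.4, 29.6, 52.2, 26.8 and 32.1 CPM in saline lungs. Ptgdr, a prostaglandin D2 receptor, had 3.35 to 6.27 CPM (median 4.51) in HDM lungs, and its 503 counts against 3 in saline lungs gave a ratio of 186 (95% counting interval 63.3 to 905). These 3 rose. Hpgd, which inactivates prostaglandins, fell to 25.7 to 125 CPM (median 57.1) in HDM lungs, against 381, 359, 299, 370.5 and 366 CPM in saline lungs, a log2 fold change of -2.45 ± 0.73 (adjusted p = 0.0175, and 0.0721 without HDM libraries 8 and 9). Alox12e, an epidermal-type lipoxygenase, had 1.58 to 4.15 CPM (median 2.16) in HDM lungs and 0.240, 0.165, 0.242, 0.0778 and 0.0991 CPM in saline lungs. Of 18 genes in the list 7 rose and 2 fell, with 4 higher without saline library 5 and 1 lower without HDM library 1, 3 or 9, HDM libraries 8 and 9 together, or saline library 2, 3 or 4.

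Metalloproteinases rose for 7 of 16 genes of that list, and none fell, though 3 were lower with GC slope as covariate. Mmp13, a collagenase, had 5.94 to 55.1 CPM (median 13.4) in HDM lungs, against 1.06, 1.38, 0.449, 1.87 and 0.462 CPM in saline lungs. Mmp19 had 299 to 627 CPM (median 467) in HDM lungs and 29.2, 30, 28.5, 31.1 and 24.8 CPM in saline lungs. Timp1, an inhibitor of metalloproteinases, had 38.3 to 268 CPM (median 114) in HDM lungs, against 7.87, 3.52, 4.73, 2.88 and 4.62 CPM in saline lungs, a log2 fold change of 4.72 ± 0.64 (adjusted p = 8.39e-07). The range within the HDM group was wide for all 3, and none overlapped the saline group.

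Of 17 collagens 6 rose and 1 fell, with 4 higher and none lower without HDM libraries 8 and 9 and 14 higher in a fit of the 11 libraries alone. Col3a1 averaged 1134 ± 228 CPM in HDM lungs and 438 ± 55.5 CPM in saline lungs. Col15a1, of basement membrane zones, had 51 to 168 CPM (median 90.4) in HDM lungs, against 16.3, 12.8, 45.1, 15.8 and 12.8 CPM in saline lungs. Col14a1, which coats fibrils, had 155 to 354 CPM (median 277) in HDM lungs and 89.7, 62.7, 77.6, 74.9 and 47.4 CPM in saline lungs, and its call was lost without HDM libraries 8 and 9 (adjusted p = 0.0667). The one that fell was Col12a1, with 11.5 to 25 CPM (median 13.4) in HDM lungs, against 89.2, 60.3, 46.5, 79.2 and 59.9 CPM in saline lungs, a log2 fold change of -2.05 ± 0.56 (adjusted p = 0.00854, and 0.0592 without HDM libraries 8 and 9). Tnc, tenascin C of healing tissue, had 57.5 to 156 CPM (median 111) in HDM lungs and 17.6, 10.7, 16.2, 16.4 and 20.8 CPM in saline lungs. Of 21 matricellular and elastic fibre genes 6 rose and none fell, and 3 rose without saline library 3 or without HDM libraries 8 and 9. Myocd, a coactivator of smooth muscle genes, had 4.34 to 10.9 CPM (median 4.87) in HDM lungs and 1.30, 2.42, 1.76, 2.64 and 1.85 CPM in saline lungs, and was 1 of 2 smooth muscle genes of 12 that rose. None was called without HDM libraries 8 and 9, and 1 without HDM library 8.

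Complement and acute phase genes rose in part. Cfi, complement factor I, had 24.4 to 76.6 CPM (median 37.7) in HDM lungs, against 2.30, 1.32, 1.38, 0.622 and 1.06 CPM in saline lungs, a log2 fold change of 4.93 ± 0.60 (adjusted p = 9.54e-08). C2 fell, with 19.7 to 36.5 CPM (median 23.4) in HDM lungs and 86.7, 52, 63.2, 54 and 36.6 CPM in saline lungs, and its call was lost without HDM libraries 8 and 9 (adjusted p = 0.0565). Cfd, the adipocyte protease adipsin, stood at 757 CPM in saline library 3. It was called lower with that library, and had an adjusted p of 0.289 without that library in the fit of the whole series. In a fit of the 11 libraries alone without saline library 3, the call of Cfd was kept. Complement genes gave 5 higher and 2 lower of 17, with 3 higher and 1 lower without HDM libraries 8 and 9, 3 higher without saline library 2 or 5, 1 lower without saline library 3 and 8 higher with GC slope as covariate. Acute phase genes gave 11 higher and none lower of 17, while 2 were lower with GC slope as covariate. Saa3, a serum amyloid made by macrophages and epithelium, had 185 to 427 CPM (median 283) in HDM lungs, against 5.67, 1.82, 12.9, 3.89 and 1.06 CPM in saline lungs, a log2 fold change of 5.79 ± 0.80, and 6.49 without saline library 3. Itih4, an acute phase protease inhibitor, had 471 to 1030.0 CPM (median 686) in HDM lungs and 116, 57.4, 63.6, 61.5 and 46.9 CPM in saline lungs. Fga, a fibrinogen chain, had 3.31 to 7.90 CPM (median 6.29) in HDM lungs, against 1.82, 0.441, 0.345, 0.700 and 0.495 CPM in saline lungs. Itih4 and Fga were separate between the groups.

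Plasma cell genes rose for 9 of 11 members, and none fell, in every fit that left out 1 library and without HDM libraries 8 and 9. Jchain, which joins polymeric antibodies (chromosome 5, 88519809 to 88527897), had 1270.0 to 3794 CPM (median 2376) in HDM lungs, against 235, 55.4, 421, 34.7 and 44 CPM in saline lungs, a log2 fold change of 3.96 ± 0.63, and 4.72 without saline library 3. Irf4, a factor of plasma cell differentiation, had 46.4 to 115 CPM (median 80.7) in HDM lungs and 18.1, 11, 20.2, 12.4 and 13.4 CPM in saline lungs. Pou2af1, a coactivator of antibody genes, had 76.5 to 198 CPM (median 152) in HDM lungs, against 33.6, 14.4, 35.5, 20.1 and 30.1 CPM in saline lungs. Both stood higher in every HDM library than in any saline library. B cell markers as a whole had a median log2 fold change of 0.05, with 2 of 12 higher, 1 without HDM library 3, 4 or 9 or saline library 4 or 5, and none without saline library 2. Of these Fcer2a, the low-affinity IgE receptor CD23, had 53.1 to 86.1 CPM (median 70.9) in HDM lungs and 17.6, 11.7, 15.5, 20.8 and 36.9 CPM in saline lungs, with an adjusted p of 0.0154, and of 0.0548 without saline library 2.

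Genes of antibody secretion and of the unfolded protein response, which enlarges the folding capacity of the endoplasmic reticulum, rose for 13 of 20 members, and none fell, with a median log2 fold change of 1.0. The count was 13 in each fit that left out 1 library and without HDM libraries 8 and 9. Xbp1, a transcription factor of this response, had 302 to 556 CPM (median 443) in HDM lungs, against 156, 145, 159, 123 and 124 CPM in saline lungs. Creld2, an endoplasmic reticulum stress protein, had 66.9 to 142 CPM (median 95.4) in HDM lungs and 25.6, 19.3, 23.4, 19.8 and 18.1 CPM in saline lungs, a log2 fold change of 2.25 ± 0.24 (adjusted p = 6.73e-09). Derl3, of the degradation machinery, had 17 to 42.9 CPM (median 37.5) in HDM lungs, against 2.45, 1.21, 3.46, 0.272 and 1.16 CPM in saline lungs. Hspa5, the chaperone BiP, averaged 794 ± 169 CPM in HDM lungs and 423 ± 88.9 CPM in saline lungs. Hsp90b1, the chaperone GRP94, averaged 1259 ± 210.3 CPM in HDM lungs and 672 ± 118 CPM in saline lungs. Of these 5 genes the chaperones changed least, by 0.91 and 0.91 on the log2 scale.

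The endoplasmic reticulum stress element is the motif of this response, searched as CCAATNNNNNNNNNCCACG on both strands. It is shown in capitals in the 250 bases before the start of 4 of the genes that rose, from RefSeq's GRCm38.p6 sequence, 5′ to 3′ on the gene's strand. The windows are chr15:88819396-88819645 for Creld2, chr10:75893148-75893397 for Derl3 and chr2:34771840-34772089 for Hspa5, on the plus strand, and chr10:86705445-86705694 on the minus strand for Hsp90b1.
Creld2: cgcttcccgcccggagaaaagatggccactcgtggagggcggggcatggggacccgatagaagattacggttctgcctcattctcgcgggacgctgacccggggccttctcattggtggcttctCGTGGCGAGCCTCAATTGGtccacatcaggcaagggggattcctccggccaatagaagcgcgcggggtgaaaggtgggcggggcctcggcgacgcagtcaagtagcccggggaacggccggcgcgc
Derl3: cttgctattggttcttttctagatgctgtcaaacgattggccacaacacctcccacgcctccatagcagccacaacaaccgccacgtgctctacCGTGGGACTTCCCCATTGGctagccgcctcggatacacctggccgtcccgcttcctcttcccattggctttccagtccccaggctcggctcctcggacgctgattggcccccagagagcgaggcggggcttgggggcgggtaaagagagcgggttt
Hspa5: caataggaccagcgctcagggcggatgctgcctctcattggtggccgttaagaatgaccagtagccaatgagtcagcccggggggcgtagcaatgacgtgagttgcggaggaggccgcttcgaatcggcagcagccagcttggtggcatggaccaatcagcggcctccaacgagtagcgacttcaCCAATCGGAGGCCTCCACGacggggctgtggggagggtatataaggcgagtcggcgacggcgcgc
Hsp90b1: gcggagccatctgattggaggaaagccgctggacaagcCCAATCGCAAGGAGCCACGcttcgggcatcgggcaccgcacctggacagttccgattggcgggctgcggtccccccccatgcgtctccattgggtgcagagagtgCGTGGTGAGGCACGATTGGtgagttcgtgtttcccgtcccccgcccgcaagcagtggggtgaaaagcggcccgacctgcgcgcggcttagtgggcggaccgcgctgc
The element began 126 bases before the start of Creld2, 156 before that of Derl3, 65 before that of Hspa5, and 212 and 107 before that of Hsp90b1. Windows of 300 bases around the start held it in 7 of 1054 called higher genes (0.664%), in none of 813 called lower genes and in 20 of 12530 tested genes (0.160%), and in 0.119% of all promoters in the table. The other 3 called higher genes were Calr, Ero1b and Syvn1, which also serve folding or degradation in the endoplasmic reticulum, with log2 fold changes of 0.85, 1.11 and 1.13. The rest of the 20 tested genes with the element were not called. Among them were Dnajc3 and Pdia6 of the unfolded protein response list, at 0.10 and 0.72, and Canx at 0.07. The call of Syvn1 (adjusted p = 0.0335) was lost without saline library 1, 2, 3 or 4 and without HDM library 4 or 9, with an adjusted p of up to 0.0813. These genes were picked by their motif after their values were seen.

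Natural killer cell markers fell. Of 10 members 7 were lower and none higher, with a median log2 fold change of -1.81, and 6 were lower without HDM libraries 8 and 9. Ncr1, the receptor NKp46, had 0.421 to 1.41 CPM (median 1.04) in HDM lungs, against 4.32, 5.29, 2.35, 4.36 and 8.45 CPM in saline lungs, a log2 fold change of -2.42 ± 0.46 (adjusted p = 1.75e-04). Klrb1c, the receptor NK1.1, had 1.05 to 3.91 CPM (median 1.75) in HDM lungs and 6.00, 6.55, 4.35, 6.69 and 10.9 CPM in saline lungs. Prf1, perforin, had 1.31 to 4.81 CPM (median 1.92) in HDM lungs, against 5.71, 10.6, 6.67, 6.57 and 13.9 CPM in saline lungs. Gzma, a granule protease, had 3.53 to 23.2 CPM (median 7.76) in HDM lungs and 22.2, 53.9, 38.2, 44.9 and 68.7 CPM in saline lungs, and here the groups overlapped. Cd8b1, a chain of the CD8 coreceptor of cytotoxic T cells, fell to 2.91 to 10.9 CPM (median 4.96) in HDM lungs, against 5.86, 16.8, 15.2, 12.2 and 21.5 CPM in saline lungs, and overlapped. Cd8b1 was 1 of 2 genes of 10 on the T cell list that fell, and 1 fell without HDM library 1, 3, 4 or 9, HDM libraries 8 and 9 together, or saline library 2, 4 or 5.

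Checkpoint and regulatory T cell genes rose in the same lungs, 11 of 18 with none lower. Pdcd1, the receptor PD-1, had 2.59 to 8.29 CPM (median 4.07) in HDM lungs, against 1.44, 0.496, 0.829, 0.350 and 0.363 CPM in saline lungs, a log2 fold change of 2.76 ± 0.37 (adjusted p = 5.91e-07). Tnfrsf9, the costimulatory receptor 4-1BB, had 29.7 to 53.2 CPM (median 39.1) in HDM lungs and 1.92, 0.441, 0.726, 0.505 and 0.792 CPM in saline lungs. Ctla4 had 2.58 to 6.89 CPM (median 5.61) in HDM lungs, against 1.87, 0.826, 1.76, 0.817 and 1.39 CPM in saline lungs. All 3 were separate between the groups. Icos, a costimulatory receptor, had 8.29 to 12.5 CPM (median 9.61) in HDM lungs and 5.28, 4.19, 3.97, 4.28 and 5.25 CPM in saline lungs.

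Alveolar type 1 cell markers fell for 6 of 12 members, and none rose. The count was 10 in a fit of the 11 libraries alone, and 4 without HDM library 9 or without HDM libraries 8 and 9. Hopx, a homeodomain protein of these flat cells, had 77.7 to 141 CPM (median 112) in HDM lungs, against 388, 415, 366, 420.3 and 363 CPM in saline lungs, a log2 fold change of -1.81 ± 0.28 (adjusted p = 9.65e-06). Rtkn2 had 25.5 to 77 CPM (median 55.9) in HDM lungs and 189.7, 206, 108, 206 and 149 CPM in saline lungs. Cav1, the main caveolar coat protein (chromosome 6, 17306335 to 17341328), averaged 385 ± 90 CPM in HDM lungs and 1120.0 ± 136 CPM in saline lungs. Each lay lower in every HDM library. Emp2, a membrane protein of the same cells, had 371 to 658 CPM (median 512) in HDM lungs, against 1099, 1143, 835, 1195 and 999.6 CPM in saline lungs. Among 12 markers of type 2 alveolar cells 2 rose, the collectins Sftpa1 and Sftpd, and 4 rose with GC slope as covariate. Sftpd had 1214 to 1772 CPM (median 1637) in HDM lungs and 608, 516, 374, 519 and 349.7 CPM in saline lungs, with a log2 fold change of 1.73 ± 0.26 (adjusted p = 4.51e-06).

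Several stromal genes fell. Of 13 fibroblast markers 6 fell and 1 rose, the collagen Col14a1, while 4 fell and none rose without HDM libraries 8 and 9. Inmt, an amine methyltransferase of alveolar fibroblasts (chromosome 6, 55170627 to 55174990), had 48.2 to 310.4 CPM (median 143) in HDM lungs, against 642, 1035, 927, 1072 and 966 CPM in saline lungs. Tcf21, a transcription factor of lung mesenchyme, had 4.41 to 16.7 CPM (median 13.5) in HDM lungs and 28.2, 47, 36.6, 47 and 48.4 CPM in saline lungs. Wnt2, a Wnt ligand of that mesenchyme, had 5.34 to 9.23 CPM (median 7.23) in HDM lungs, against 14.4, 22.9, 21.6, 18.6 and 18.1 CPM in saline lungs. All 5 mesothelial markers had negative log2 fold changes and 4 fell. Upk1b, a uroplakin of mesothelium, had 6.38 to 16.2 CPM (median 13.3) in HDM lungs and 51, 43.7, 40.8, 49.7 and 33.5 CPM in saline lungs. Capillary endothelial markers gave 4 lower of 14, none without HDM libraries 8 and 9, 1 without HDM library 9, and 7 with GC slope as covariate. Platelet genes gave 3 lower of 8, and 2 without saline library 3 and likewise without HDM libraries 8 and 9. The count was 7 with GC slope as covariate and 6 in a fit of the 11 libraries alone. Among the 3 was Ppbp, a platelet chemokine, with 1.55 to 4.85 CPM (median 2.14) in HDM lungs, against 25.8, 31, 28.7, 18.7 and 15.4 CPM in saline lungs.

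**Figure D5:**
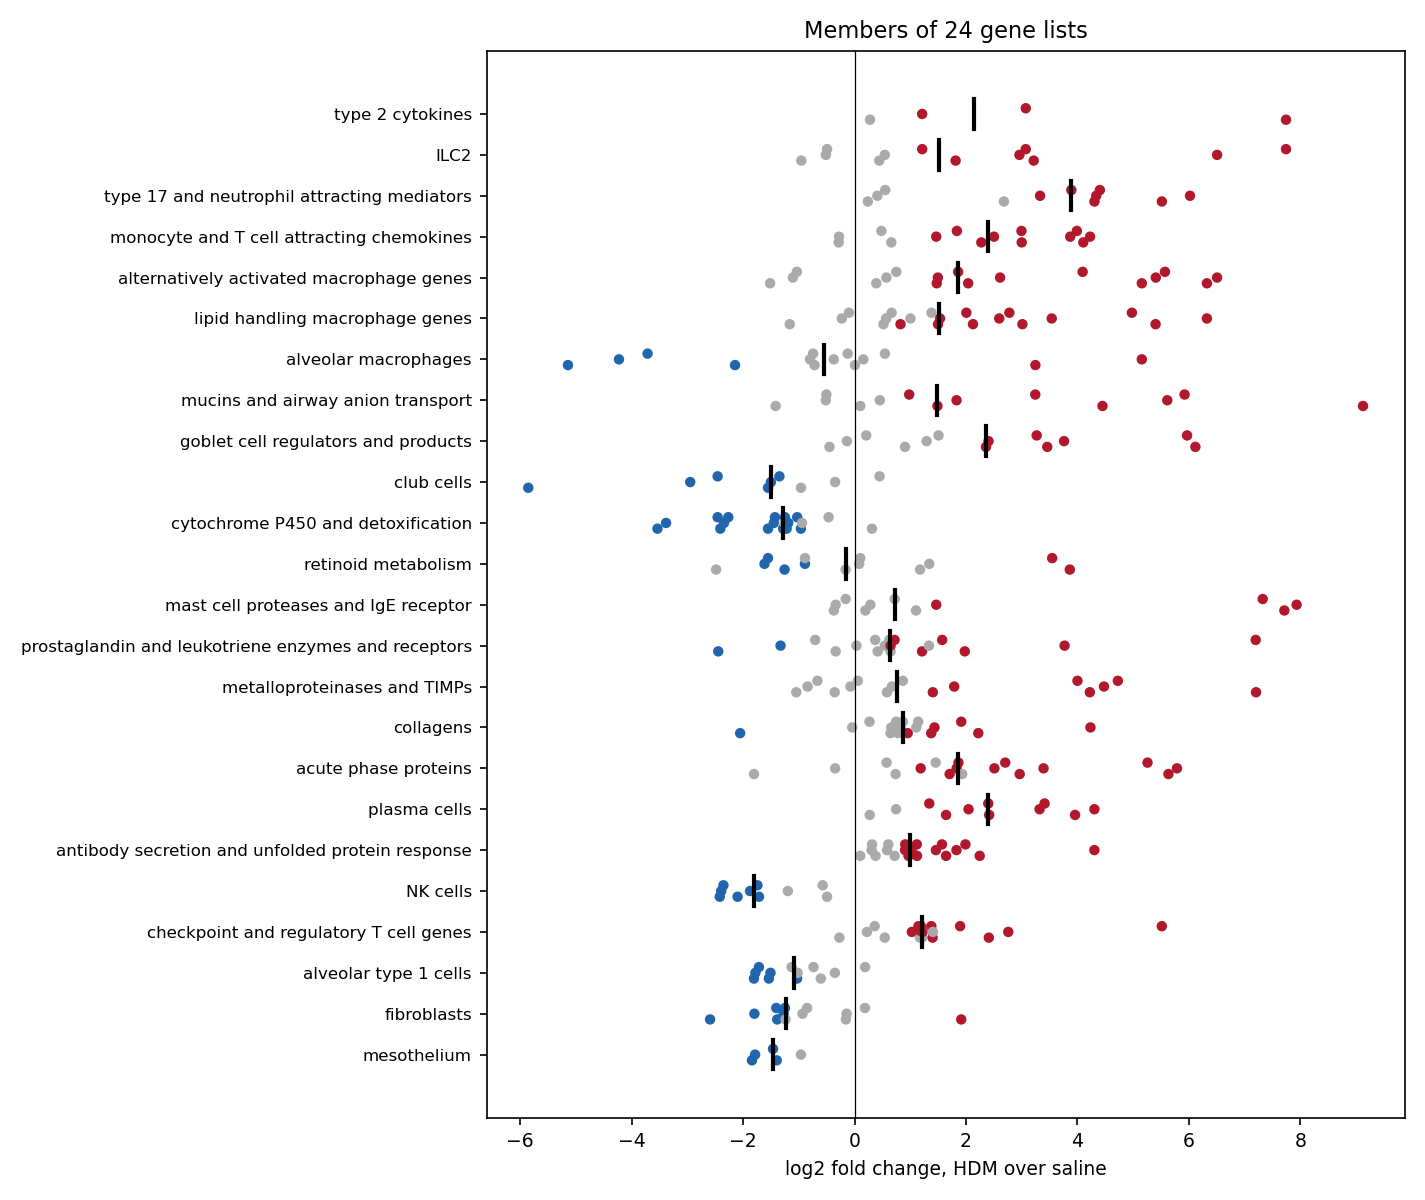
Log2 fold change of HDM over saline for every tested member of 24 gene lists, 1 dot a gene and a black bar at the median, with called higher genes in red, called lower genes in blue and the rest in grey. The medians of the plasma cell, chemokine and lipid handling macrophage lists lie above 0, and those of the detoxification, club cell, natural killer (NK) cell and mesothelial lists below 0.

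Signalling factors of the Wnt, BMP and TGF-beta families moved in both directions, with 3 of 19 higher, 5 with GC slope as covariate, and 5 lower. Inhba, the activin A chain, had 18.3 to 47.3 CPM (median 31.1) in HDM lungs, against 1.20, 0.771, 1.45, 1.01 and 1.12 CPM in saline lungs, a log2 fold change of 4.89 ± 0.49 (adjusted p = 1.85e-09). Gdf15, a stress-induced member of the TGF-beta family, had 1.49 to 6.53 CPM (median 2.31) in HDM lungs and 0.288, 0.220, 0.242, 0.155 and 0 CPM in saline lungs. These 2 rose without overlap. Bmp3 had 3.78 to 12.5 CPM (median 7.06) in HDM lungs, against 45.4, 37.3, 15.3, 34 and 29.6 CPM in saline lungs, and Bmp6 had 8.25 to 24.8 CPM (median 17.3) in HDM lungs, against 45.3, 60.5, 41.9, 69.8 and 67.6 CPM in saline lungs. Wnt3a had 2.70 to 6.46 CPM (median 4.57) in HDM lungs and 13.5, 15.4, 11.6, 14 and 12.8 CPM in saline lungs. Edn1, the vasoconstrictor endothelin-1, fell as well, with 8.65 to 12.3 CPM (median 11.2) in HDM lungs, against 22.9, 25.3, 23.4, 20.6 and 34.3 CPM in saline lungs, and its call was lost without HDM libraries 8 and 9 (adjusted p = 0.0531).

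Interferon response genes had a median log2 fold change of -0.47, with 3 of 20 lower and 1 higher. Gbp2, a guanylate binding protein, had 38.2 to 74.3 CPM (median 48.1) in HDM lungs, against 154, 332, 135, 133 and 110.3 CPM in saline lungs. The count of lower genes was 10 in a fit of the 11 libraries alone, 6 with DESeq2, 5 with GC slope as covariate, 1 without HDM libraries 8 and 9 and likewise 1 without HDM library 1, 3, 4 or 8 or saline library 2 or 4. Cell cycle genes gave 10 of 18 higher and none lower, with 16 called in the 11 libraries alone, 3 without HDM libraries 8 and 9, 4 without HDM library 8 or saline library 2, 4 or 5, and 6 without HDM library 3 or 4. Ccne1, cyclin E1, had 3.03 to 6.21 CPM (median 4.33) in HDM lungs and 1.73, 1.32, 1.69, 1.67 and 1.35 CPM in saline lungs, a log2 fold change of 1.51 ± 0.25 (adjusted p = 1.95e-05). Glycolysis genes summed to 2633 to 4281 CPM in HDM lungs, against 4077 CPM in saline library 3 and 1712 to 1996 CPM in the other saline libraries. Of 17 genes 4 rose with a median log2 fold change of 0.45, and 6 rose without saline library 3, with a median of 0.77. Hk3, the hexokinase of myeloid cells, had 37.7 to 95.8 CPM (median 48.8) in HDM lungs, against 6.38, 7.22, 9.02, 5.21 and 6.97 CPM in saline lungs. Cholesterol synthesis gave 3 higher of 18, 8 with GC slope as covariate, among them Dhcr7, with 47 to 75.9 CPM (median 59.2) in HDM lungs and 18.7, 19, 32.2, 16.9 and 18.3 CPM in saline lungs. Dendritic cell genes gave 5 higher of 12. Itgax, the integrin CD11c also carried by macrophages, had 309 to 625 CPM (median 562) in HDM lungs, against 98.2, 61.4, 47.7, 52 and 49.4 CPM in saline lungs.

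The circadian repressors Bhlhe40 and Bhlhe41 rose, and so did several stress genes. Bhlhe40 and Bhlhe41, paired repressors that also act in macrophages and T cells, averaged 228 ± 48.5 CPM and 68.7 ± 19.3 CPM in HDM lungs, against 47.5 ± 6.66 CPM and 13.8 ± 5.47 CPM in saline lungs. Of 18 circadian genes 3 rose, and 1 fell that was not called without HDM libraries 8 and 9, without HDM library 3 or without saline library 2 or 4. With GC slope as covariate 6 fell, and likewise 6 in a fit of the 11 libraries alone. The median log2 fold change of the circadian list was -0.17. Egr2, an early response factor of macrophages and T cells, had 23 to 52.9 CPM (median 34.9) in HDM lungs and 7.25, 4.02, 3.11, 5.60 and 4.16 CPM in saline lungs. Atf3, a stress factor, had 25.1 to 65.3 CPM (median 37.9) in HDM lungs, against 7.92, 6.22, 7.08, 5.75 and 5.48 CPM in saline lungs. The near-identical Hspa1a and Hspa1b had 5.96 to 25.7 CPM and 8.19 to 25.2 CPM in HDM lungs, against 2.11 to 4.97 CPM and 2.31 to 7.15 CPM in saline lungs. Of 14 early response and heat shock genes 8 rose and none fell, with 4 higher without HDM libraries 8 and 9, without HDM library 9 or without saline library 2, and 5 without saline library 1.

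Libraries differed in how expression depended on the GC content of transcripts. The slope of log2 CPM, taken against the mean of the 11 libraries, was -0.068, 0.009, -0.017, 0.034, 0.290 and 0.394 log2 units per 10 percentage points of GC in HDM libraries 1, 2, 3, 4, 8 and 9, and -0.340, -0.174, 0.133, -0.159 and -0.102 in saline libraries 1 to 5. It averaged 0.107 ± 0.188 in HDM lungs and -0.128 ± 0.171 in saline lungs (SD, n = 6 and 5), a difference of 0.235 with an exact 2-sided permutation p of 0.0671 (smallest possible 0.00216). Without saline library 3 the difference was 0.301 (exact permutation p = 0.0190), without HDM library 1 it was 0.270 (exact permutation p = 0.0476), and without HDM libraries 8 and 9 it was 0.118 (exact permutation p = 0.246). The genes called higher had a median GC content of 51.15% and a median transcript length of 2782 bases, those called lower 48.87% and 3316 bases, and all genes tested 49.77% and 3266 bases. With the slope as a covariate in all 43 libraries, all 1382 higher and all 1077 lower genes were called in the same direction. The counts came to 2391 higher and 2087 lower. With the covariate in the 11 libraries alone, 1148 of the 1382 higher and 929 of the 1077 lower genes were called. GC and length offsets kept 1261 and 1016.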

How the data were processed

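Whole-lung RNA was made into KAPA stranded mRNA libraries from 500 ng with 12 PCR cycles and read for 33 cycles, per the labels' protocols. The authors deposited expected counts per NCBI Gene ID for 24475 genes. The submitters' processing notes give the build mm10, while aligner, counter, annotation and strand setting are not given in these sources, so overlapping and near-identical genes are uncertain. The expected counts were rounded, genes were filtered with filterByExpr by group, and all 43 libraries entered 1 quasi-likelihood model with TMM factors (edgeR 4.0.16, R 4.3.3, 36 residual degrees of freedom, coefficient of variation between libraries 0.431), tested 2-sided with adjustment over 15979 genes. The code was tested on simulated data. CPM use TMM-scaled totals, counts of up to 3 set a floor, and 95% intervals hold for counting error alone, as PCR copies are not independent. Symbols and positions are RefSeq's for GRCm38.p6 (24375 IDs matched), and GC content and length are those of the longest GENCODE transcript.

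Named genes were up to 12 per direction with the largest fold change (at least 5 CPM in the higher group) or the largest difference in level, called and without overlap, leaving out antigen receptor segments, predicted genes and IDs with no symbol. List members serve as examples. The 65 lists, the rule and the tests were chosen with earlier results of these data known. Alternatives were DESeq2 1.42.0, limma 3.58.1 voom, other factors, filters, the replicate block, GC corrections and left-out libraries. Within the HDM and the saline group, no library was a duplicate of another by chi-square tests of counts.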

Additional observations from a re-analysis of the deposited data

Results flagged for a closer look

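A library was marked where its gap to the nearest other library of its group was large for the group's range by Dixon's 95% criterion on log2(CPM + 0.1), which chance meets in about 1 of 20 groups. Saline library 3 stood apart most often, for 21 of the 29 gene values marked among 360 groups of values examined. The genes examined were those named in the text. Several were named for falls that rested on this library, so the tally does not hold for genes at large. It was the high one for Krt13 at 5305 CPM, Cfd at 757 CPM, Rptn at 732 CPM, Car3 at 665 CPM, Tgm3 at 384 CPM, Cidec at 114 CPM, Myl1 at 94.5 CPM, Klk10 at 52.4 CPM, Elovl4 at 39.7 CPM, Dsc3 at 38.9 CPM and Prom2 at 36.9 CPM. These are genes of squamous epithelium, fat or muscle, or have been described above as resting on that library. It was also the high saline library for genes that were higher in HDM lungs, namely Ptges at 52.2 CPM, Col15a1 at 45.1 CPM, Dhcr7 at 32.2 CPM, Chil4 at 25.8 CPM, Arg1 at 14.6 CPM, Ccl11 at 8.57 CPM and Tpsab1 at 0.0691 CPM, and likewise Slc2a1 at 28.9 CPM. Cpa3, which was not called, stood at 9.16 CPM there, and Hpgd was low at 299 CPM.

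Sums over gene lists marked the same library. It was high at 13421 CPM for squamous epithelium, 2027 CPM for muscle, 1822 CPM for adipocytes, 4077 CPM for glycolysis and 4170.0 CPM for the long and housekeeping transcripts used as a check of RNA quality. It was low at 609 CPM for IL-4 and IL-13 receptor genes. Its second principal component of -100.7 and its median correlation of 0.922 with its own group were marked too.

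Other libraries were marked less often. Among HDM libraries, number 9 was high for Ftl1 at 5685 CPM, for Slc2a1 at 78.5 CPM, for Cxcl2 at 30.5 CPM and for the summed IL-4 and IL-13 receptor genes at 1021 CPM. HDM library 2 was high for Itgae at 18.7 CPM. HDM library 8 was low for Cxcl1 at 6.84 CPM. HDM library 1 was high for Alox12e at 4.15 CPM and for Krt13 at 0.112 CPM, and HDM library 4 low for prostaglandin genes at 553.5 CPM and high for mitochondrially encoded genes at 63761 CPM. Among saline libraries, number 1 was low for Inmt at 642 CPM and high for dendritic cell genes at 209.9 CPM, number 2 high for interferon response genes at 1863 CPM, and number 5 low for eosinophil genes at 85.4 CPM.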

How the results depend on the processing

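Counts of called genes changed with the libraries in the fit, the tool and GC corrections. The main counts were 1382 genes higher and 1077 lower. With only the 11 libraries compared they came to 3003 higher and 3035 lower, with the GC slope added as covariate 2391 and 2087, with that covariate in the 11 libraries alone 2311 and 2225, and with saline library 3 left out and the covariate 2345 and 1832. Limma voom with sample weights gave 4353 higher and 4265 lower. GC and length offsets gave 2028 lower, and the fit without HDM libraries 8 and 9 gave 585 lower. In fits added after seeing the data, the 11 libraries gave 3901 and 3519 without saline library 3, and 2255 and 2204 without HDM libraries 8 and 9.

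Leaving out 1 library gave 1067 to 1377 genes higher and 758 to 1054 lower. Genes at least 4-fold higher came to 429 to 547 in these fits, and those at least 4-fold lower, 274 with all libraries, to 155 to 320. The count of genes at least 4-fold lower was 530 with no filter on low counts, 159 without saline library 3 once the GC slope was a covariate, and, in the added fits of the 11 libraries, 155 without saline library 3 and 152 without HDM libraries 8 and 9. The difference in GC slope was 0.178 to 0.301 when 1 library was left out.

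Replicate numbers did not pair the libraries: same-numbered HDM and saline libraries had correlations of their deviations between 0.00922 and 0.108, and 1 of the 4 numbers, number 4, correlated best with itself. With the number as a replicate block in the 11 libraries, 1915 genes were lower and 130 at least 4-fold lower. The same fit without the block had 3035 genes lower and 202 at least 4-fold lower, and 1991 genes were higher with the block, against 3003 without it. In all 43 libraries the block gave 1142 genes higher and 802 lower, 462 and 224 of them by at least 4-fold.

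Of 177 called genes named in the text, 162 were called in every fit that left out 1 library and 144 under all 28 alternatives. The sign of the log2 fold change of Cpa3, which was not called, turned under 5 alternatives: -0.14 with the GC covariate in the 11 libraries, and below 0 without saline library 2, 4 or 5 or HDM library 4, the values being -0.06 without saline library 2, -0.03 without saline library 4, -0.07 without saline library 5 and -0.094 without HDM library 4, the lowest of the fits that left out 1 library. The highest was 1.57 without saline library 3. The cause of these changes was not tested. Depth limits genes near 0 CPM, where a group held few counts.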

Other observations

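Of the dendritic cell genes, Fscn1, Batf3 and Itgae rose. Fscn1, an actin bundler of mature dendritic cells, had 31.9 to 84.5 CPM (median 43) in HDM lungs, against 10.6, 6.39, 15.9, 10.1 and 8.85 CPM in saline lungs, a log2 fold change of 2.25 ± 0.63 (adjusted p = 0.0109, and 0.0683 without HDM libraries 8 and 9). Batf3, a factor of cross-presenting cells, had 2.24 to 6.04 CPM (median 4.26) in HDM lungs and 0.816, 0.661, 1.07, 0.778 and 0.891 CPM in saline lungs. Itgae, the integrin CD103 also found on T cells, had 12.5 to 18.7 CPM (median 13.1) in HDM lungs, against 6.67, 5.95, 5.01, 6.65 and 4.39 CPM in saline lungs. The groups did not overlap for these 3. Slc2a1, the glucose transporter GLUT1, had 38.1 to 78.5 CPM (median 42) in HDM lungs and 18.1, 18.2, 28.9, 18.4 and 19 CPM in saline lungs, and Hk2, hexokinase 2, had 44.4 to 77.9 CPM (median 60.1) in HDM lungs, against 23.7, 23.4, 32.8, 19.6 and 19.9 CPM in saline lungs.

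Some genes under or near the filter differed in raw counts. Saa2, a serum amyloid close in sequence to Saa1, had 29 counts in the HDM libraries and none in the saline libraries, at least 10.7-fold higher against 3 counts over the saline group. Mcpt9, a mast cell protease, had 14 counts and none, at least 5.18-fold higher. Il22 had 2 counts in HDM lungs and none in saline lungs, and Il25 none in HDM lungs and 2 in saline lungs, so that neither could be compared at this depth.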
